A study of Mus musculus with 72 samples.

Results

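The proteasome subunit genes of mouse whole blood were followed through oral lead (Pb) exposure and a recovery period. The members were all genes with a probe set of exactly 1 symbol starting with Psma, Psmb, Psmc, Psmd or Psme and a digit. Psmc3ip, which is no proteasome gene, was left out. This gave 43 genes of 18193 with such a probe set on the array, each represented by whichever of its probe sets was brightest on average across the 72 arrays. Female Balb/c mice, 9 weeks old, drank water with lead acetate trihydrate at 0, 5 or 50 µg/mL for 2 weeks, and plain water for the next 2 weeks. Each period ended with a submandibular bleed. The arrays fell into 6 groups: after exposure, 7 of control mice, 15 of the low dose (5 µg/mL) and 15 of the high dose (50 µg/mL), and after recovery 7, 15 and 13 in the same order. Every exposed mouse was bled at the first collection, but of the controls only a part was, and whether the second collection used the same control mice is not stated. Nothing in the labels groups the mice into batches.

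The proteasome is the protease that degrades ubiquitin-tagged proteins in the cytosol and nucleus. Its 20S core is a barrel of alpha rings, which gate the entry, around beta rings, which hold the catalytic sites. The 19S cap sits on the barrel. ATPases in its base unfold the substrate, and its lid removes ubiquitin. In immune cells, and in others under interferon, the catalytic subunits Psmb5, Psmb6 and Psmb7 are replaced by Psmb8, Psmb9 and Psmb10, which makes the immunoproteasome and changes the peptides offered on MHC class I. The 11S activator PA28 and the nuclear activator PA200 open the core without the cap. In blood, lymphocytes and monocytes carry much immunoproteasome, and reticulocytes, the immature red cells, use the ubiquitin system while they lose their organelles.

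By role the 43 genes were 8 alpha subunits, 4 non-catalytic and 3 catalytic constitutive beta subunits, 4 immunoproteasome or thymoproteasome subunits, 6 cap ATPases, 3 other base subunits, 8 lid subunits, 3 assembly chaperones of the cap (Psmd5, Psmd9 and Psmd10), 3 activator genes (Psme1, Psme3 and Psme4) and Psme3ip1. The last matches the symbol pattern but encodes a protein that binds the activator PA28 gamma. A gene was tested if at least 7 arrays exceeded log2 4.14, the median over the whole deposited table, and 41 of the 43 did. Psma8, the alpha subunit of testis, had a mean of 3.57, and Psmb11, the thymus subunit, had a mean of 3.47. Neither passed that median on any of the 72 arrays, and they were not tested. The 41 others were above it on all 72. The PA28 beta gene Psme2 shares its probe set with Psme2b and so is no member by the 1-symbol rule.

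Of the cell type markers checked, 11 B cell, 10 T cell, 9 NK and cytotoxic, 9 monocyte, 9 neutrophil, 11 platelet and 11 reticulocyte and erythroid genes passed the filter, and so did 7 markers of facial tissue around the bleeding site, of which 0 were called in any comparison. Globin transcripts had been depleted. The spread of relative log expression, the log2 deviation of each gene from its median over arrays, was wide on 9 of the 72 arrays (interquartile range over 1.5 times the median). Of these, 3 were high-dose arrays after exposure, 4 low-dose, 1 control and 1 high-dose arrays after recovery. In bulk blood, fewer cells of a type and less RNA per cell cannot be told apart. Below, a gene was called when its adjusted p was under 0.05 in a limma fit of the 6 group means over all 12588 tested genes (Benjamini-Hochberg within the comparison). Log2 differences are given ± SE and levels as deposited log2 values.

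After 2 weeks of exposure no proteasome gene differed from control at either dose. High dose against control gave 0 calls among the 41 genes in limma (0.0238% of all genes were called) and 5 at an unadjusted p under 0.05, all lower. Of all genes, 9.48% passed that unadjusted limit. The 5 were Psmb7 and Psma2 of the core, Psmb8 of the immunoproteasome, and the cap ATPases Psmc1 and Psmc5. For Psmb7, the trypsin-like subunit, the 7 control arrays lay between 7.48 and 8.28 with a median of 7.65, and the 15 high-dose arrays lay between 6.87 and 7.77 with a median of 7.48. The groups overlapped, and 8 of the 15 high-dose arrays lay below every control array. The difference was -0.35 ± 0.12 (limma adjusted p = 0.314), the smallest adjusted p of the 41. Psmc5 gave -0.21 ± 0.09 (limma adjusted p = 0.434) and Psmb8 gave -0.23 ± 0.10 (limma adjusted p = 0.439).

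The direction was shared more widely than the calls. High-dose means lay below control for 35 of the 41 genes, with a median difference of -0.12, where 58.9% of all genes lay below with a median of -0.023. All 14 core genes, all 3 immunoproteasome genes and 14 of the 17 cap genes were on that side. At the upper end, above 0, were Psme4 (0.24 ± 0.16), the PA200 activator, and Psmd4 (0.14 ± 0.10), a ubiquitin receptor of the cap, neither of them called. Under the 3 rescalings of the arrays (quantile, median centring and cyclic loess) 33, 33 and 32 genes lay below 0. The core genes varied together across arrays, so such counts, here and below, are not separate observations. Their mean per array, relative to each gene's mean over all arrays, ranged from -0.20 over a median of -0.11 to 0.33 in control. At the high dose it ranged from -0.49 over -0.15 to 0.047. The medians were thus close, and control arrays at 0.26 and 0.33 raised the control mean. At the low dose 0 of the 41 genes were called (1.3% of all genes were) and 0 had an unadjusted p under 0.05, against 12.4% of all genes. The smallest p values were those of Psme4 (0.29 ± 0.16), Psmd11 (-0.14 ± 0.09), a lid subunit, and Psma4 (0.12 ± 0.09). Means lay below control for 14 genes (49.3% of all genes), with a median of 0.025. Under cyclic loess scaling of the arrays this count was 23 and the median -0.0018, so the low dose gave no stable direction.

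**Figure D1:**
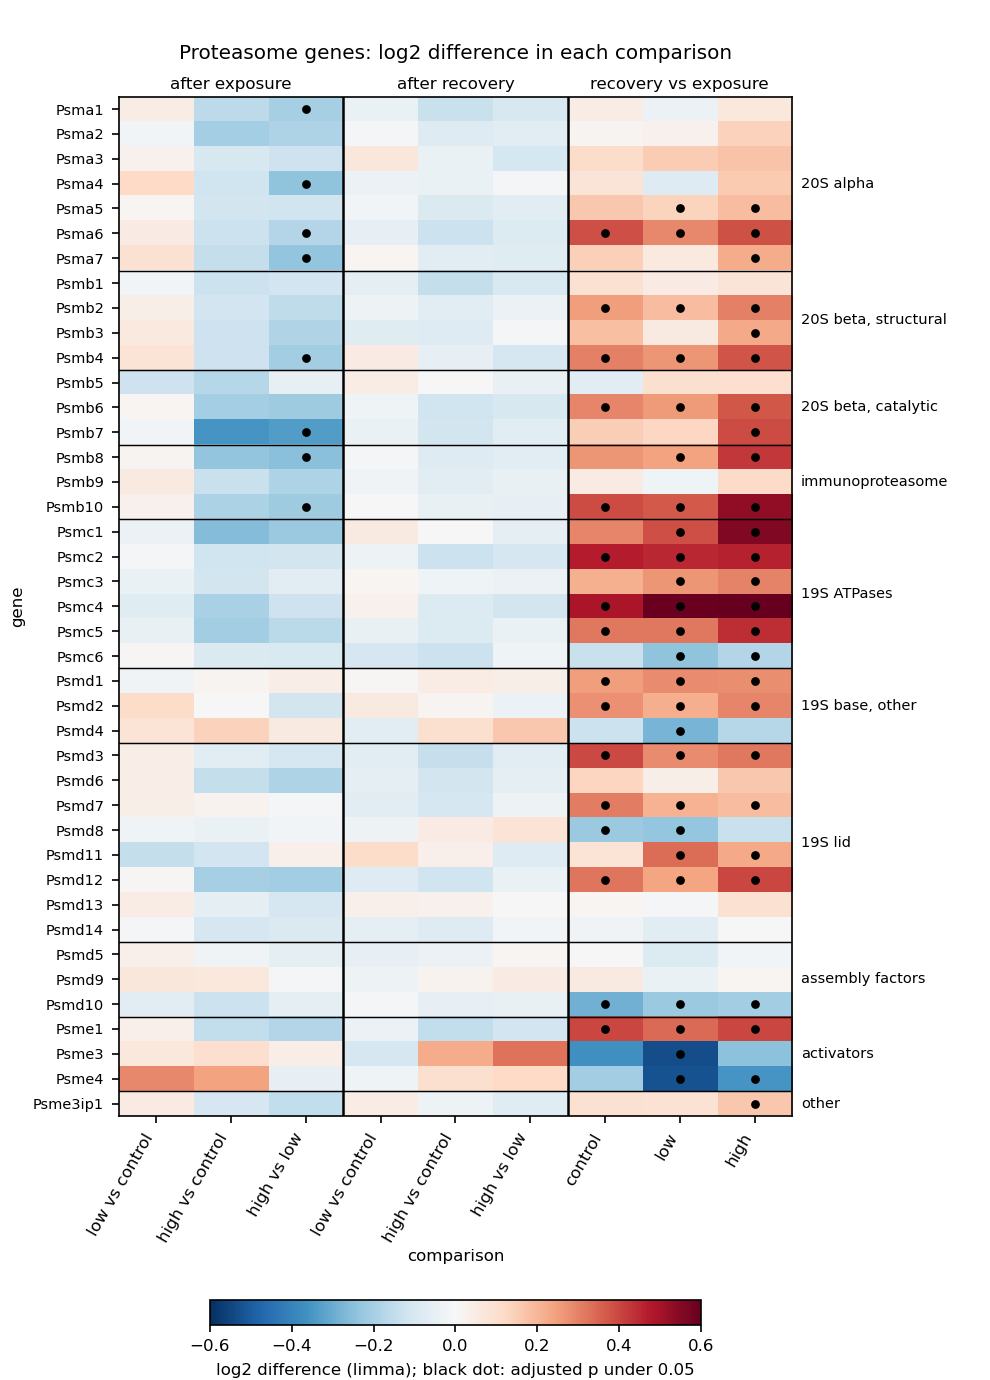
Log2 difference of the 41 tested proteasome genes (rows, by role) in the comparisons of doses after exposure, of doses after recovery, and of recovery with exposure within a dose (columns). Blue is lower, red is higher in the first-named group, and a black dot marks an adjusted p under 0.05. Dots stand in the high against low column after exposure (8, all blue) and in the recovery against exposure columns (16, 25 and 26), and in no other column.

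Between the doses after exposure, 8 proteasome genes were lower in the high-dose mice than in the low-dose mice and 0 were higher. They were the alpha subunits Psma1, Psma4, Psma6 and Psma7, the beta subunits Psmb4 and Psmb7, and the immunoproteasome subunits Psmb8 and Psmb10. Thus 6 of 14 core genes and 2 of 3 immunoproteasome genes were called, and 0 of 17 cap genes, 0 of 3 assembly chaperones and 0 of 3 activators. Of all genes 18.7% were called in this comparison, 12.6% lower and 6.04% higher. The share of 8 in 41 is near that background, so the count says nothing particular of the proteasome. Of the 41 genes 37 lay below 0 (58.2% of all genes), with a median of -0.12 against -0.031 for all genes. The median was -0.18 over the core, -0.21 over the immunoproteasome genes and -0.10 over the cap.

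Psmb7 differed most. Its low-dose arrays lay between 7.28 and 8.17 with a median of 7.69, and the high-dose arrays between 6.87 and 7.77 with a median of 7.48. The groups overlapped, with 4 of 15 high-dose arrays below every low-dose array (-0.33 ± 0.094, limma adjusted p = 0.00962). Psma7, an alpha ring subunit, ranged from 8.03 over a median of 8.22 to 8.42 at the low dose. It ranged from 7.30 over 8.03 to 8.24 at the high dose, where 6 of 15 arrays lay below the low-dose range (-0.24 ± 0.069, limma adjusted p = 0.0119). Psma4 ranged from 8.54 over 8.83 to 9.12 at the low dose and from 8.31 over 8.58 to 8.95 at the high dose. It had the most arrays outside the low-dose range of the 8 genes, 7 of 15 (-0.24 ± 0.073, limma adjusted p = 0.0156). The other core genes fell by similar amounts, Psma1 by 0.20, Psma6 by 0.18 and Psmb4 by 0.21 on the log2 scale, each with 6 of 15 high-dose arrays below the low-dose range.

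Psmb8, the chymotrypsin-like subunit of the immunoproteasome, ranged from 9.05 over a median of 9.41 to 9.84 at the low dose. The high-dose arrays ranged from 8.78 over 9.16 to 9.55, with 4 of 15 arrays below the low-dose range (-0.25 ± 0.080, limma adjusted p = 0.0216). Psmb10, the trypsin-like one, ranged from 8.27 over 8.51 to 8.91 and from 7.99 over 8.31 to 8.64, with 6 of 15 arrays below (-0.21 ± 0.078, limma adjusted p = 0.0471). Psmb9, which takes the place of the caspase-like Psmb6, gave -0.19 ± 0.07 and was not called (limma adjusted p = 0.0633). Of the constitutive partners, Psmb5 gave -0.048 ± 0.079 (limma adjusted p = 0.693) and Psmb6 gave -0.21 ± 0.08 (limma adjusted p = 0.0551). Among cap genes the smallest p values were those of the lid subunit Psmd12 (-0.21 ± 0.08, limma adjusted p = 0.0737) and the ATPase Psmc5 (-0.16 ± 0.07). Wherever one of the 8 called genes had other probe sets that passed the filter (Psma1, Psma6, Psma7, Psmb4 and Psmb8), all of them lay below 0 as well.

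These 8 calls depended on the arrays and on the cell markers. With the 9 wide arrays left out, 1 of the 8 stayed past the threshold, Psmb7 (-0.29, limma adjusted p = 0.0323), while 9.15% of all genes did. With the per-array means of B cell, monocyte, platelet and erythroid markers as covariates, 0 were called (0.874% of all genes) and the sign turned for 7 of the 8. The markers moved in the same comparison. At the high dose 10 of 11 B cell markers and 8 of 9 monocyte markers were lower than at the low dose, and 8 of 11 platelet and 5 of 11 erythroid markers were higher. Their part in the result was not tested, since the marker means differ between the same groups and that fit cannot separate markers from dose. The B cell mean, relative to each gene's mean over all arrays, ranged from -0.43 to 0.49 at the low dose and from -1.06 to -0.079 at the high dose. The monocyte mean ranged from -0.18 to 0.31 and from -0.61 to -0.059. In control, low and high dose after exposure the B cell mean averaged -0.44, -0.014 and -0.70. The monocyte mean averaged -0.39, 0.052 and -0.31, the platelet mean 0.10, -0.17 and 0.14, and the erythroid mean 0.20, 0.14 and 0.41. Control thus lay nearer the high dose for B cell, monocyte and platelet markers, and nearer the low dose for erythroid markers. The 18S ribosomal RNA control probe sets averaged 7.00 ± 0.86 (SD, n = 15) at the low and 7.79 ± 0.99 (SD, n = 15) at the high dose. In control after exposure they averaged 7.00 ± 0.73 (SD, n = 7).

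**Figure D2:**
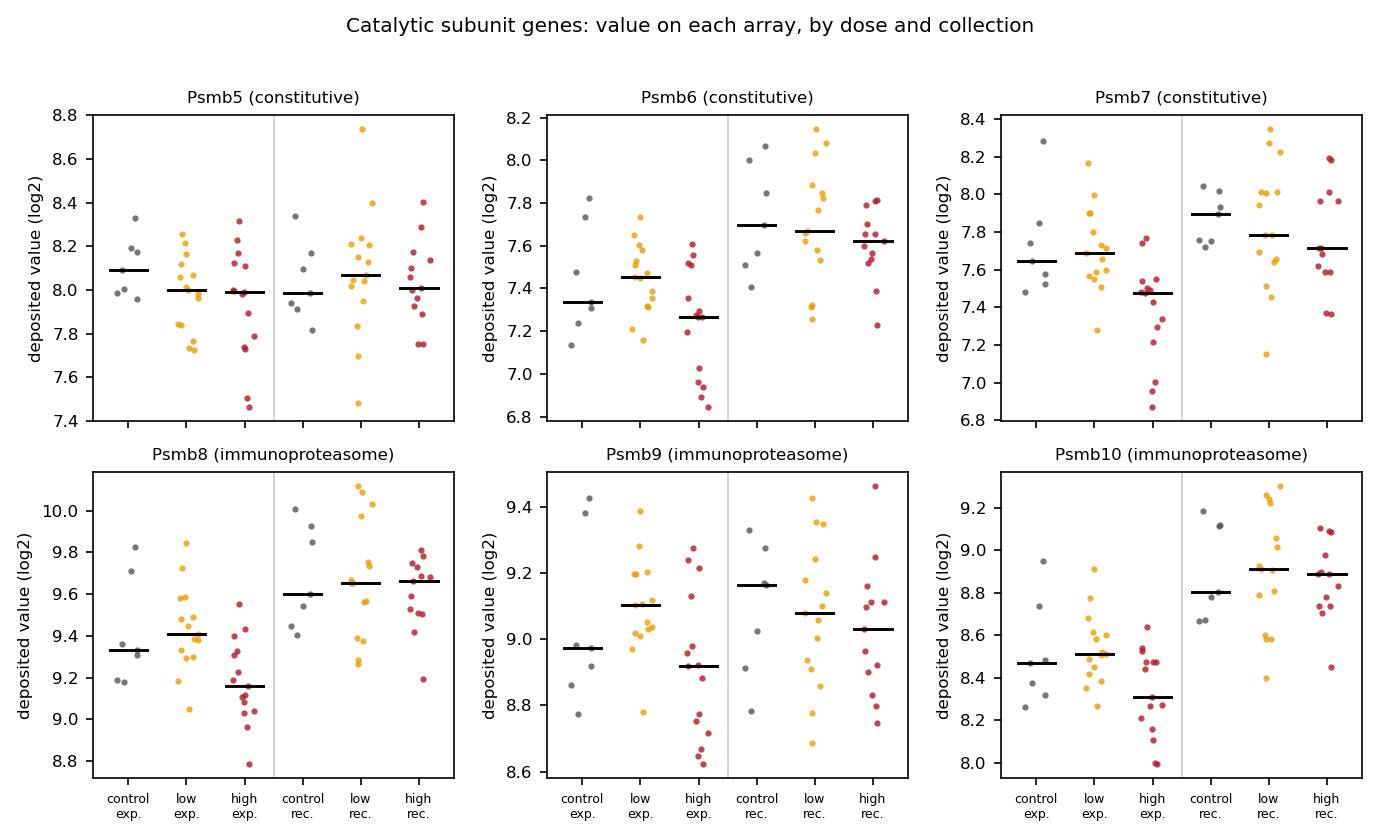
Deposited log2 values of the constitutive catalytic genes (upper row) and their immunoproteasome counterparts (lower row) on each of the 72 arrays, by dose (colour) and collection (exp., after exposure; rec., after recovery). Points are arrays and bars are group medians. After exposure the high-dose medians of Psmb7 (7.48) and Psmb8 (9.16) are below the low-dose ones (7.69 and 9.41), and the groups overlap in every panel.

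After the recovery period no proteasome gene differed between doses. In limma 0 of 41 were called for high dose against control (0.429% of all genes), with 0 at an unadjusted p under 0.05 (10.9% of all genes). For low dose against control 0 were called (0% of all genes), with 0 at the unadjusted limit (2.34%). For high against low dose 0 were called (0% of all genes), with 1 at the unadjusted limit (14%). That gene was Psme3, the PA28 gamma activator, which was higher at the high dose by 0.33 ± 0.13 (limma adjusted p = 0.294). Its levels ran from 9.74 over a median of 10.67 to 11.51 at the low dose and from 10.39 over 11.07 to 11.39 at the high dose, so the high-dose range lay within the low-dose range. The next smallest p values belonged to Psmd4 (0.16 ± 0.09) and the ATPase Psmc2 (-0.10 ± 0.07).

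Against control the smallest p values after recovery were those of Psmd3 (-0.14 ± 0.07), a lid subunit, Psmb1 (-0.14 ± 0.08) and Psma6 (-0.13 ± 0.08) at the high dose. For the low dose they were those of Psmd11 (0.11 ± 0.09), Psmc6 (-0.10 ± 0.09) and Psmd3 (-0.069 ± 0.071). High-dose means were below control for 31 of 41 genes (58.8% of all genes) and below low dose for 34 (59% of all genes), and 14 of 14 core genes were on that side in each. Under the rescalings these counts fell as low as 27 and 23. Low-dose means were below control for 28 of 41 genes (52.9% of all genes). Whether the dose effect changed between collections was tested as an interaction. It was called for 0 of 41 genes at the high dose (0.00794% of all genes), with 0 at an unadjusted p under 0.05 (3.43%). The low-dose interaction was called for 0 (0.0238%), with 1 at the unadjusted limit (8.45%), Psmd11 (0.26 ± 0.13, limma adjusted p = 0.577). The high-dose interaction was 0.26 ± 0.18 for Psmc1 and 0.24 ± 0.17 for Psmb7, neither called.

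The collections differed far more than the doses did. From exposure to recovery, 14 proteasome genes rose and 2 fell in the control mice, which never had Pb (16 of 41 called, 36.1% of all genes). At the low dose 19 rose and 6 fell (25 of 41, 44.1% of all genes), and at the high dose 23 rose and 3 fell (26 of 41, 49.2% of all genes). Among all genes the called ones were 22.5% higher and 13.6% lower in control, 26.2% and 17.9% at the low dose, and 29.3% and 19.8% at the high dose. Cyclic loess scaling gave 10 higher and 3 lower, 17 and 10, and 20 and 7 (37.9%, 45.5% and 50% of all genes called). The 41 genes had median differences of 0.14, 0.12 and 0.19, where all genes had -0.012, -0.0040 and -0.0046. Of the 41 genes, 15 were called in all 3 dose groups, 14 of them higher and 1 lower, and 12 were called in none. At the second collection the mice were also older and the exposed ones had been bled before, which cannot be told apart from the end of exposure in the Pb groups. Array batches are not given in the sources, so a batch that coincides with the collection could not be checked in any dose group. The control arrays had no Pb at either collection. The 18S ribosomal RNA control probe sets also differed. They averaged 7.0, 7.0 and 7.8 after exposure in control, low and high dose, and 6.4, 6.3 and 6.4 after recovery. The part of this shift in the collection differences was not tested.

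Of the 6 cap ATPases, which unfold the substrate, Psmc2, Psmc4 and Psmc5 rose in all 3 dose groups. Psmc2 ranged from 8.28 over a median of 8.35 to 8.80 in control mice after exposure and from 8.65 over 8.87 to 9.16 after recovery. The ranges overlapped, with 4 of 7 recovery arrays above every exposure array (0.47 ± 0.092, limma adjusted p = 4.67e-05). In the low-dose group it went from 8.06, 8.43 and 8.73 to 8.56, 8.88 and 9.17 (lowest, median and highest), with 11 of 15 arrays above the earlier range (0.45 ± 0.063, limma adjusted p = 2.30e-08). In the high-dose group it went from 8.09, 8.32 and 8.53 to 8.37, 8.84 and 9.03, with 12 of 13 arrays above (0.46 ± 0.07, limma adjusted p = 2.40e-08). The 3 differences of Psmc2 lay within 1 SE of each other. Psmc4 rose by 0.49 ± 0.14 in control, 0.59 ± 0.09 at the low and 0.60 ± 0.10 at the high dose, with 3 of 7, 11 of 15 and 11 of 13 recovery arrays above the exposure range. These sizes depend on the probe set. The other probe set of Psmc2 above the filter gave 0.24, 0.24 and 0.31 in control, low and high dose, and that of Psmc4 gave 0.27, 0.29 and 0.37. Psmc5 rose by 0.32 ± 0.10, 0.31 ± 0.07 and 0.44 ± 0.07. Psmc1 and Psmc3 were called in both Pb groups, Psmc1 with 0.38 ± 0.10 and 0.55 ± 0.10 and Psmc3 with 0.27 ± 0.07 and 0.30 ± 0.07. In control they gave 0.29 ± 0.15 and 0.21 ± 0.10, which did not pass. The other ATPase, Psmc6, went the other way. It fell by 0.24 at the low and by 0.18 at the high dose, and gave -0.14 ± 0.10 in control, where it was not called.

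The rest of the cap was mixed. The base subunits Psmd1 and Psmd2, large scaffolds of the cap, rose in all 3 groups, Psmd1 by 0.25, 0.28 and 0.28 and Psmd2 by 0.27, 0.22 and 0.29. Psmd4, the ubiquitin receptor of the base, fell by 0.28 at the low dose (limma adjusted p = 0.00454) and gave -0.13 ± 0.12 in control and -0.17 ± 0.09 at the high dose. Its 2 other probe sets above the filter gave -0.56 and -0.024 at the low dose. In the lid, Psmd3, Psmd7 and Psmd12 rose in all 3 groups. For Psmd7, the lid partner of Psmd14, this held for the probe set used (0.31, 0.21 and 0.19), and its other probe set above the filter gave 0.022, 0.034 and 0.083. Psmd3 ranged from 6.69 over 6.95 to 7.17 in control mice after exposure and from 7.17 over 7.25 to 7.53 after recovery. There 6 of 7 arrays lay above the earlier range (0.39 ± 0.08, limma adjusted p = 0.000119), and it gave 0.29 ± 0.06 and 0.32 ± 0.06 in the Pb groups. Psmd11 was called at the low (0.34 ± 0.07) and high dose (0.23 ± 0.07), with 0.080 ± 0.105 in control. Of its 4 other probe sets that passed the filter, 1 had the opposite sign in each Pb group (-0.11 and -0.20). Psmd8 fell by 0.22 in control and by 0.23 at the low dose, where 10 of 15 recovery arrays lay below the exposure range. The lid subunits Psmd6, Psmd13 and the deubiquitinase Psmd14 were called in none with the probe sets used. The other probe set of Psmd6 above the filter gave 0.32, 0.30 and 0.49 in control, low and high dose. Those of Psmd13 gave 0.049 to 0.14, -0.0098 to 0.13 and -0.037 to 0.16.

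In the 20S core 4 of 14 genes rose in control, 5 at the low and 8 at the high dose, and 0 fell. Psma6 rose in all 3 groups, by 0.39 ± 0.09, 0.29 ± 0.06 and 0.38 ± 0.06. Its 2 other probe sets above the filter gave 0.21 to 0.36, 0.030 to 0.18 and 0.19 to 0.28. Its exposure arrays lay between 9.40 and 9.93 in control, 9.40 and 9.84 at the low and 9.17 and 9.69 at the high dose, and its recovery arrays between 9.57 and 10.19, 9.55 and 10.14, and 9.47 and 9.94. Of these recovery arrays 4 of 7, 11 of 15 and 11 of 13 lay above the exposure range of their dose. The beta subunits Psmb2, Psmb4 and Psmb6 rose in all 3 groups too, Psmb4 by 0.30, 0.27 and 0.38. Psma5 was called in both Pb groups (0.13 ± 0.05 and 0.18 ± 0.06), where its other probe set above the filter gave 0.020 and 0.050. At the high dose Psma7 (0.22 ± 0.07), Psmb3 (0.23 ± 0.07) and Psmb7 (0.39 ± 0.10) were called as well. With the probe sets used, these 3 genes were not called in the other groups. For Psmb3 this depends on the probe set. Its other one above the filter gave 0.46, 0.41 and 0.54 in control, low and high dose. That of Psma7 gave 0.082, -0.060 and 0.17. The change of these 3 genes was not shown to differ from that of the control mice, since the interaction of high dose and collection was called for 0 of 41. Psma1, Psma2, Psma3, Psma4, Psmb1 and Psmb5 were called in none with the probe sets used. The other probe set above the filter gave 0.39, 0.37 and 0.36 for Psma3 and 0.37, 0.22 and 0.36 for Psma1. Those of Psmb1 gave 0.15, 0.11 and 0.14, and -0.18, -0.014 and 0.043.

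Of the immunoproteasome genes, Psmb10 rose in all 3 groups. It ranged from 8.26 over 8.47 to 8.95 in control after exposure and from 8.67 over 8.81 to 9.19 after recovery (0.39 ± 0.11, limma adjusted p = 0.00530). The low-dose difference was 0.37 ± 0.08. At the high dose it ranged from 7.99 over 8.31 to 8.64 and from 8.45 over 8.89 to 9.11, with 12 of 13 recovery arrays above the earlier range (0.53 ± 0.08, limma adjusted p = 1.22e-07). Psmb8 was called at the low (0.24 ± 0.08) and high dose (0.42 ± 0.08), with 0.27 ± 0.12 in control (limma adjusted p = 0.0663). Psmb9 gave 0.049 ± 0.108, -0.026 ± 0.073 and 0.12 ± 0.08 and was called in none.

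The activators were split. Psme1, the PA28 alpha subunit that works with the immunoproteasome, rose by 0.40 ± 0.11 in control, 0.34 ± 0.08 at the low and 0.40 ± 0.08 at the high dose. Psme3, the nuclear PA28 gamma, fell by 0.53 at the low dose (limma adjusted p = 0.000381), where its levels went from 10.70, 11.24 and 11.32 to 9.74, 10.67 and 11.51 (lowest, median and highest). Of the 15 recovery arrays 8 lay below the exposure range and the others overlapped it. Psme3 gave -0.37 ± 0.18 in control and -0.25 ± 0.13 at the high dose, neither called. Its other probe set above the filter gave -0.55, -0.62 and -0.50 in control, low and high dose. Psme4, the PA200 activator, fell by 0.52 at the low dose (limma adjusted p = 0.000531) and by 0.35 at the high dose (limma adjusted p = 0.0220), and gave -0.21 ± 0.19 in control. Of its 3 other probe sets that passed the filter, 1 had the opposite sign in each Pb group (0.18 and 0.067). The assembly chaperone Psmd10, also known as gankyrin, was the only gene to fall in all 3 groups, by 0.29, 0.22 and 0.21. Psmd5 and Psmd9 were called in none, and Psme3ip1 was higher at the high dose only (0.16 ± 0.06), a call lost under all 3 rescalings of the arrays.

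Some of the cell marker lists moved with the collection as well. B cell markers were higher after recovery for 11 of 11 genes in control, 9 at the low and 11 at the high dose. Monocyte markers were higher for 8, 4 and 7 of 9, with 1 lower at the low dose. Erythroid markers were lower for 7, 8 and 9 of 11. Other lists did not share such a course. In control, low and high dose the T cell mean went from 0.084, -0.021 and -0.062 to 0.052, 0.012 and 0.0081. The NK and cytotoxic mean went from -0.051, -0.016 and -0.0078 to 0.075, -0.0071 and 0.023. The platelet mean went from 0.10, -0.17 and 0.14 to -0.23, -0.023 and 0.13. The neutrophil mean rose, from -0.12, 0.0015 and -0.19 to 0.073, 0.14 and 0.074. The erythroid mean of the control arrays ranged from -0.14 to 0.55 after exposure and from -0.68 to -0.17 after recovery, without overlap. The B cell mean of the control arrays ranged from -1.50 to 0.47 and from 0.31 to 0.92. With the 4 marker means as covariates, 18 genes were called in control, 13 at the low and 15 at the high dose. Of all genes 18.6%, 30.5% and 33.6% were called in that fit. The calls were then nearly all decreases: control had 18 lower and 0 higher, the low dose 12 lower and 1 higher, and the high dose 14 lower and 1 higher. Of the called genes, the sign turned for 12 in control, 9 at the low and 14 at the high dose. Because the marker means differ so much between the collections, this fit cannot separate markers from collection. Without the 9 wide arrays the counts were 12, 17 and 21 (34.4%, 32.4% and 39.9% of all genes). Leaving out 1 control array at a time gave between 10 and 18 calls in control, with 10 without exposure replicate 4 or 7 or recovery replicate 5 or 7. For the fits with 10 calls, 32.1%, 31%, 30.1% and 31.2% of all genes were called, in the same order.

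The promoters of 4 members with different courses are shown because genes of this family moved in opposite directions between the collections. Of the 43 members, 36 matched the RefSeq table of gene starts (GRCm38.p6). The 250 bases before the start are printed 5′ to 3′ on the gene's strand. Capitals mark matches, on either strand, to the motifs searched: CCAAT (the NF-Y box), TGACNNNGC (the core of the antioxidant element bound by NRF1 and NRF2), TTCNNNGAA (a STAT site), an interferon response element (GAAA, any 2 bases, GAAA) and GATAA (the GATA site of erythroid and other factors). Psmb8 lies at chr17:34197945-34198194 on the plus strand, Psmc2 at chr5:21785025-21785274 on the plus strand, Psmd4 at chr3:95042615-95042864 on the minus strand and Psmd8 at chr7:29180674-29180923 on the minus strand.
Psmb8: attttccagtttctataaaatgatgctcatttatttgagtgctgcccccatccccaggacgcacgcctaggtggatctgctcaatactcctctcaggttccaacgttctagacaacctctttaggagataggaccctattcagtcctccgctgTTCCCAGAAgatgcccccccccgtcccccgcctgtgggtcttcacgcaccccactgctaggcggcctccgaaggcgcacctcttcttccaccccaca
Psmc2: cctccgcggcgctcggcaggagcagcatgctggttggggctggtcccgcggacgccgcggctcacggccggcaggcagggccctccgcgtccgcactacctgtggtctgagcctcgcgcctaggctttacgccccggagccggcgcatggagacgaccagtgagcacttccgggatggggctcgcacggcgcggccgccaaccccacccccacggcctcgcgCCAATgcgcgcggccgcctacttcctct
Psmd4: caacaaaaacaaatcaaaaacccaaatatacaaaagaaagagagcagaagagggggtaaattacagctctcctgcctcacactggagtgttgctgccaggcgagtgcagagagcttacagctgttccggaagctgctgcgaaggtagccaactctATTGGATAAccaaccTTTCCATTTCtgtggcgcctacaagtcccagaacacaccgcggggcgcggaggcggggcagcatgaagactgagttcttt
Psmd8: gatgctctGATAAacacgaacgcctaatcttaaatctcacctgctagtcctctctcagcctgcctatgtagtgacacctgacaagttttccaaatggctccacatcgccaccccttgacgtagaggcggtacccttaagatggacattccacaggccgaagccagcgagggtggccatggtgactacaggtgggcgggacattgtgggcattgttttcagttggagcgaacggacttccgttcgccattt

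Psmb8 held a TTCNNNGAA match 97 to 89 bases before the start, the only one among the 36 members (2.78%, against 7.18% of 27025 promoters). Psmc2 held a CCAAT 28 bases before the start. In Psmd4, CCAAT on the opposite strand and GATAA shared 1 base, with the GATAA from 91 to 87 bases before the start, and an interferon element match followed on the opposite strand, 80 to 71 bases before the start. In Psmd8 the only match was a GATAA, 242 bases before the start. CCAAT was found in 14 of 36 members (38.9%, against 34.5% of all promoters), TGACNNNGC in 5 (13.9% against 10.1%), the interferon element in 3 (8.33% against 3.04%) and GATAA in 6 (16.7% against 23%). A match describes the letters only.

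The immunoproteasome subunits were set against the constitutive subunits they replace, as the difference of the log2 values on the same array. The offset between different probe sets has no meaning, so only its change between groups is read. Permutation tests were run on 3 pairs in 9 comparisons, and p-values were adjusted over these 27. Psmb8 minus Psmb5 ranged from 1.28 over a median of 1.45 to 1.68 at the low dose after exposure and from 1.04 over 1.27 to 1.46 at the high dose. There 9 of 15 high-dose arrays lay below the low-dose range (-0.20 ± 0.04, adjusted p = 0.000360, permutation test, two-sided). Psmb8 was thus lower at the high dose relative to Psmb5 on the same arrays. The control arrays ranged from 1.14 over 1.27 to 1.52, and neither dose differed from them after adjustment (adjusted p = 0.0785 for the low and 0.540 for the high dose, exact permutation test). The other pairs did not separate the doses: Psmb9 minus Psmb6 differed by 0.028 ± 0.050 and Psmb10 minus Psmb7 by 0.12 ± 0.07 between high and low dose.

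Between the collections the pairs went in opposite directions. Psmb8 minus Psmb5 was higher after recovery by 0.33 ± 0.10 in control (adjusted p = 0.0177, exact permutation test, 4 of 7 arrays above the exposure range), by 0.15 ± 0.05 at the low dose (adjusted p = 0.0181, permutation test) and by 0.32 ± 0.05 at the high dose (adjusted p = 0.000270, permutation test). Psmb9 minus Psmb6 was lower. Its control arrays ranged from 1.51 over 1.60 to 1.72 after exposure and from 1.21 over 1.38 to 1.47 after recovery, without overlap (-0.24 ± 0.05, adjusted p = 0.00335, exact permutation test). It was also lower at the low (-0.28 ± 0.04, 13 of 15 arrays beyond the exposure range) and high dose (-0.26 ± 0.07). Psmb10 minus Psmb7 was higher in control (0.25 ± 0.06, adjusted p = 0.0112, exact permutation test) and at the low dose (0.25 ± 0.06, adjusted p = 0.00335, permutation test). At the high dose it gave 0.14 ± 0.08, which did not pass (adjusted p = 0.152, permutation test). The replacement subunits thus changed unequally against their partners, 1 pair falling and the others rising. Pair differences, between doses or between collections, were not fitted with the marker means as covariates. The part of cell makeup in them was not tested.

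**Figure D3:**
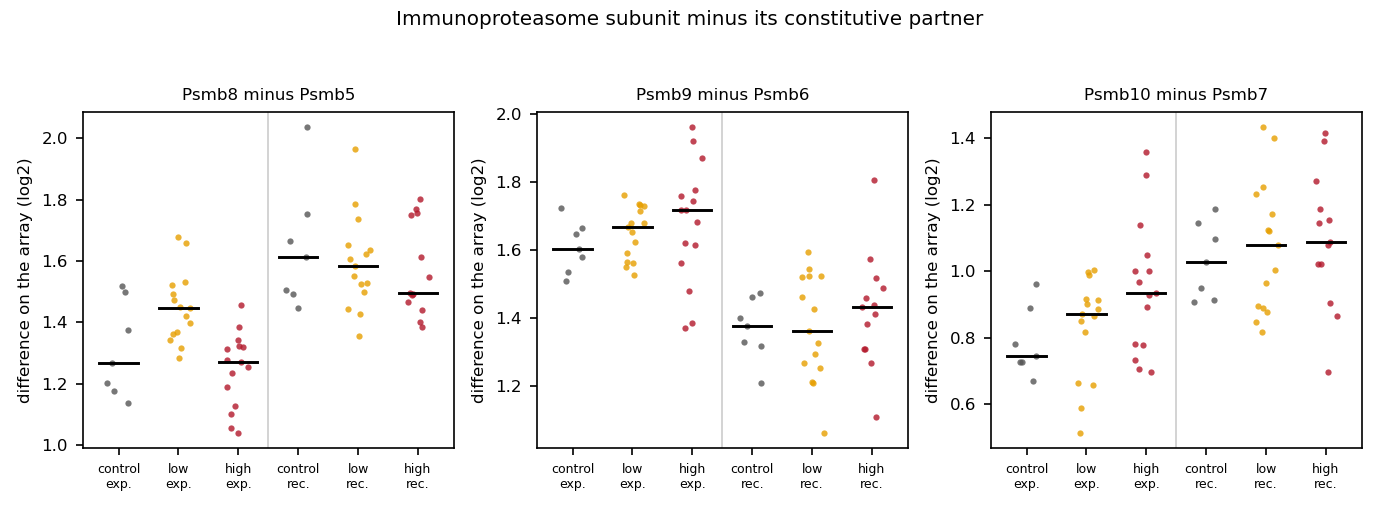
Difference of log2 values on the same array between each immunoproteasome gene and its constitutive counterpart, by dose (colour) and collection (exp. and rec.), with group medians as bars. From exposure to recovery Psmb8 minus Psmb5 and Psmb10 minus Psmb7 are shifted up and Psmb9 minus Psmb6 is shifted down, and its control arrays (1.51 to 1.72 and 1.21 to 1.47) do not overlap.

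Within groups the subunit genes varied together across arrays. After the group means were removed, the 91 pairs of core genes had a median Pearson r of 0.762 over the 72 arrays, and 0 of them were below 0. The 3 immunoproteasome pairs had a median of 0.873 and the 42 pairs of core and immunoproteasome genes 0.777. The 238 pairs of core and cap genes had a median of 0.682, with 7 below 0, and the 136 cap pairs 0.588, with 9 below 0. All pairs of tested genes had a median of 0.0275. The 42 pairs of core genes and activators had a median of -0.223, with 27 below 0. The genes least like the core were Psme3 (median r with core genes -0.378), Psme4 (-0.242), Psmd4 (0.0094) and Psmd8 (0.204). These arrays share depth, labelling and cell makeup, and the exposed mice gave an array at each collection. The values are therefore a description.

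The same 4 genes had the opposite sign to most members in their relation to erythroid markers. Each of the 41 genes was related to the mean of 4 marker lists over the 72 arrays, with group means removed and labels permuted within groups (164 relations, adjusted over them). With the erythroid mean 30 genes had a called negative and 4 a called positive Pearson r. The smallest absolute r among them was 0.287, and of all tested genes outside the marker list 31.9% had a negative and 15.4% a positive r of at least that size. The negative ones were 13 of 14 core, 12 of 17 cap and 3 of 3 immunoproteasome genes, Psme1 and Psme3ip1. The positive ones were Psme3, Psme4, Psmd4 and Psmd8. For Psme3 r was 0.773 and Spearman's rho 0.758 (adjusted p = 3.81e-05 and 3.90e-05, from the smallest p that 100000 permutations can give, 1e-05). It was 0.733 without the 2 arrays farthest from the median of the marker mean, 0.753 among exposure arrays and 0.804 among recovery arrays. Psme4 gave an r of 0.753 and Psmd4 one of 0.713, with 0.728 and 0.698 among exposure arrays and 0.775 and 0.740 among recovery arrays. For Psmd8 r was 0.452 (0.586 and 0.329 within the collections). At the other end Psmc2 gave an r of -0.575 and rho of -0.527 (adjusted p = 3.81e-05 and 6.43e-05, permutation test), -0.593 without the 2 farthest arrays, and -0.499 and -0.632 within the collections.

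With the B cell mean 36 genes had a called positive and 1, Psme3, a called negative r, with the median over the 41 at 0.497. Of all genes 45% were positive and 26.7% negative past the smallest absolute r of these calls, and their median r was 0.177. With the monocyte mean 37 were positive and 0 negative (45% and 21.9% of all genes). With the platelet mean 2 were positive and 4 negative (8.34% and 4.54% of all genes). Relations of this size to B cell, monocyte and erythroid markers were thus common among all genes. The positive B cell and monocyte counts and the negative erythroid count of the members were above those shares. Their positive erythroid count was below its share. Most members vary together across arrays, so the counts are a description of these arrays. Psma6 had the highest r with B cell markers of the core (0.656, 0.767 and 0.603 within the collections).

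**Figure D4:**
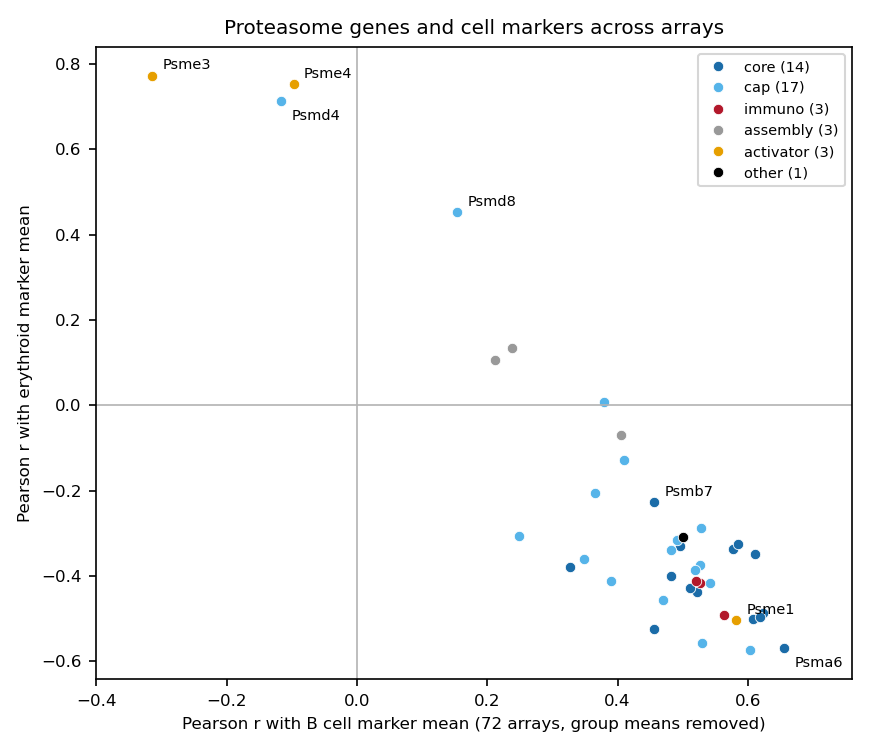
Pearson r of each of the 41 tested proteasome genes with the B cell marker mean (x axis) and with the reticulocyte and erythroid marker mean (y axis) over 72 arrays, after removal of group means, coloured by class. Most genes lie at the lower right, and Psme3, Psme4, Psmd4 and Psmd8 lie apart with r of 0.773, 0.753, 0.713 and 0.452 on the y axis.

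**Figure D5:**
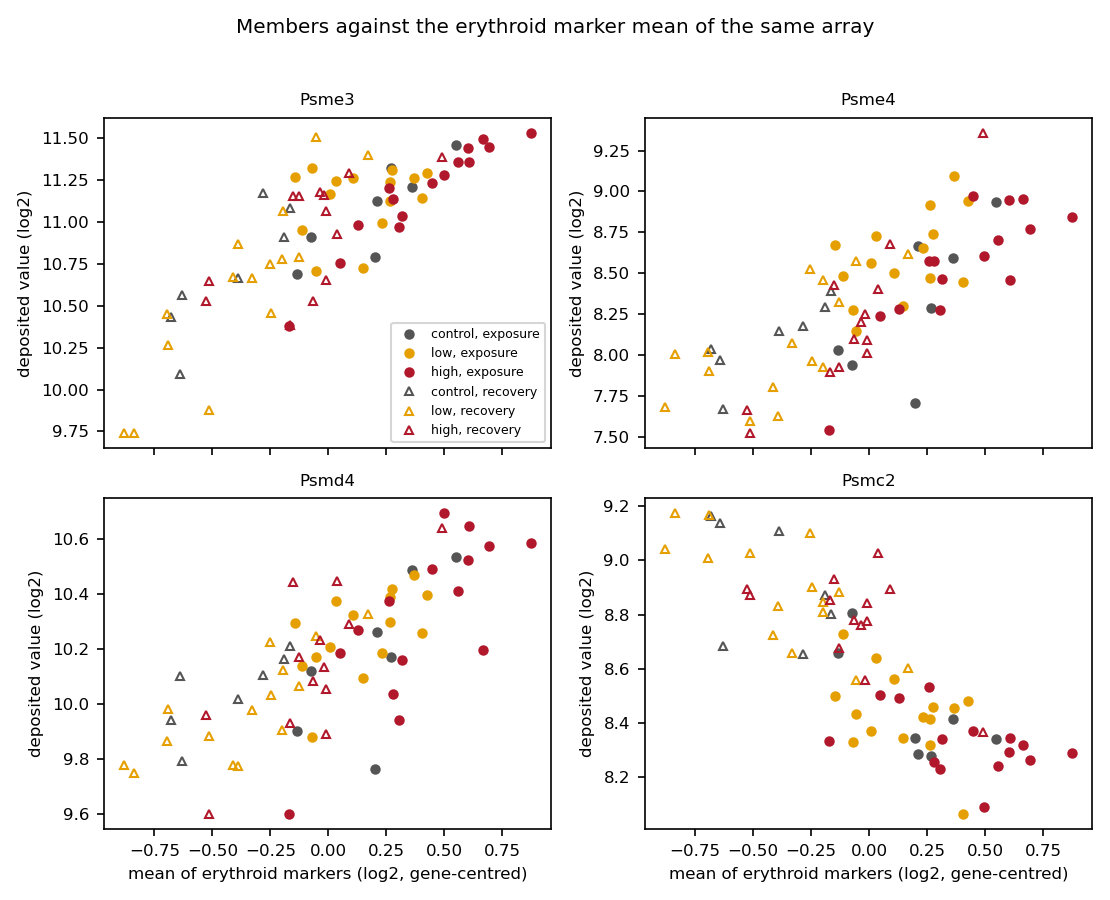
Deposited log2 values of Psme3, Psme4, Psmd4 and Psmc2 (y axes) against the mean of the erythroid markers on the same array, centred per gene (x axis), for the 72 arrays by dose (colour) and collection (filled circles, exposure; open triangles, recovery). The values of Psme3, Psme4 and Psmd4 are higher and those of Psmc2 lower where the erythroid mean is higher, in both collections.

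Of other genes of the pathway, 37 were measured in 6 lists: assembly and inhibitors, proteasome-bound deubiquitinases and ligases, ubiquitin activation, shuttles and unfoldase, transcription, and MHC class I peptide loading. Between high and low dose after exposure 5 of 37 were called, all lower, where 18.7% of all genes were called and 12.6% were lower. The count is near that background. They were Tapbp (-0.20 ± 0.07), H2-D1 (-0.20 ± 0.05) and H2-K1 (-0.18 ± 0.06) of the 12 MHC class I genes, the assembly chaperone Psmg3 (-0.18 ± 0.06) and the small cap subunit Sem1 (-0.18 ± 0.06). From exposure to recovery 9 of 37 were called in control (6 higher), 18 at the low (14 higher) and 19 at the high dose (15 higher). Of all genes 36.1%, 44.1% and 49.2% were called, so the control count lies below the background and the others near it. Tapbp, the tapasin that loads peptides onto MHC class I, rose by 0.52 ± 0.10, 0.49 ± 0.07 and 0.61 ± 0.07. Nlrc5, the activator of MHC class I and Psmb9 transcription, rose by 0.43 ± 0.11, 0.27 ± 0.07 and 0.42 ± 0.07, and Tap1, a subunit of the peptide transporter, by 0.25, 0.16 and 0.24. Vcp, the unfoldase that hands substrates to the proteasome, rose by 0.41, 0.27 and 0.37.

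Psmf1, the proteasome inhibitor PI31, was the largest decrease of these lists and fell in all 3 groups, by 0.61 in control, 0.57 at the low and 0.36 at the high dose. Of the transcription factors, Nfe2l1 (NRF1), which drives proteasome genes when proteasome activity is low, rose at the low (0.20 ± 0.06) and high dose (0.21 ± 0.07). Nfe2l2 (NRF2) fell in all 3 groups, by 0.22, 0.17 and 0.27. Ngly1, the enzyme that removes sugars from NRF1, fell by 0.28 and 0.20 in the Pb groups. The assembly chaperone Pomp, needed to build the beta ring, rose by 0.16 at each dose.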

How the data were processed

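Each of the 72 arrays was hybridised with globin-depleted RNA from the whole blood of 1 mouse. The values used are the authors' deposited log2 expression values of 45101 probe sets, which were summarised by RMA per the submitters' processing notes. Its version is not given in the sources used here, nor is an array batch. The median of an array was 4.05 to 4.22. Symbols came from the platform annotation (34945 with 1 symbol, 932 with several, 9211 not listed), and 13 control probe sets with a symbol were left out of the tests.

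Each gene was read from its 1-symbol probe set of highest mean, and kept if above the median of all values (4.14) in at least 7 arrays. Group means were fitted with limma 3.58.1 (R 4.3.3, lmFit and eBayes) over all 72 arrays, with 11 contrasts and Benjamini-Hochberg adjustment over 12588 genes in each; the threshold was an adjusted p of 0.05. The fit was tested on simulated data. The fit treats the 2 arrays of an exposed mouse as independent, since the labels do not tie them together. Pair differences and marker relations used permutation tests (scipy 1.17.1, numpy 2.4.6). These were exact for pair differences where a control group entered, and drew 100000 permutations otherwise. They too treat the 2 arrays of an exposed mouse as independent. Figures were drawn with matplotlib 3.10.9.

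The members, marker lists and pathway lists were chosen with earlier results of these data known. Named with values were members past the threshold, the catalytic and PA28 genes, the 3 smallest p of comparisons without calls, the extremes of each role, and up to 4 genes of each other list. Alternatives were 3 rescalings of the arrays, other filters, the mean of a gene's probe sets, array weights, only the groups compared, marker means as covariates, a replicate block and leaving out each control array. Leaving out arrays of wide relative log expression was added after seeing the data.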

Additional observations from a re-analysis of the deposited data

How the results depend on the processing

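The count of called proteasome genes was 0 in all 11 alternative settings for the dose comparisons with control, for high against low dose after recovery and for both interactions. It was also 0 without each control array in turn for the dose comparisons with control and for the interactions. For high against low dose after exposure the count was 5 with array median centring, 17 with array weights, 0 with marker means as covariates and 1 when the 9 arrays of wide relative log expression were left out. Of all genes 18.7%, 24.9%, 0.874% and 9.15% were called there, in the same order. From exposure to recovery the count was 26 with array weights in control (53.7% of all genes), and between 10 and 18 without 1 control array. With marker covariates it was 15 at the high dose (33.6% of all genes) and 13 at the low dose (30.5%). The marker covariates turned the sign of 42 of 75 called differences; the other settings turned none of these. High against low dose after exposure then gave 0.097 for Psma1, 0.047 for Psma4, 0.11 for Psma6, 0.017 for Psma7, 0.13 for Psmb10, 0.032 for Psmb4 and 0.12 for Psmb8. Recovery against exposure in control gave -0.099 for Psma6, -0.17 for Psmb10, -0.14 for Psmb2, -0.16 for Psmb4, -0.24 for Psmb6, -0.0054 for Psmc2, -0.064 for Psmc4, -0.13 for Psmc5, -0.037 for Psmd1, -0.16 for Psmd12, -0.091 for Psmd2 and -0.22 for Psme1. In low-dose mice it gave -0.087 for Psma5, -0.0065 for Psmb2, -0.047 for Psmb4, -0.054 for Psmb6, -0.072 for Psmb8, -0.084 for Psmd12, 0.055 for Psmd4, 0.11 for Psme3 and 0.080 for Psme4. In high-dose mice it gave -0.15 for Psma5, -0.019 for Psma6, -0.16 for Psma7, -0.030 for Psmb2, -0.18 for Psmb3, -0.025 for Psmb4, -0.080 for Psmb6, -0.041 for Psmb7, -0.063 for Psmb8, -0.019 for Psmc3, -0.080 for Psmd11, -0.033 for Psmd12, -0.065 for Psme1 and -0.14 for Psme3ip1. Among pair differences 2 that had not passed the test changed sign: Psmb9 minus Psmb6 between low dose and control after recovery was -0.0076 with quantile normalization (0.0055 as reported). Psmb8 minus Psmb5 between high and low dose after recovery was 0.019 without the wide arrays (-0.025 as reported). The cause of these changes was not tested. Whether replicate numbers pair the arrays of a mouse is not stated. Same-numbered arrays had a median correlation of deviations of 0.036 in control, 0.073 at the low and -0.00096 at the high dose. It was over 0.1 in 3 of 7, 7 of 15 and 4 of 13 pairs. Arrays of different numbers had medians of -0.031, 0.0093 and 0.00077. Cell makeup and array quality also shape such correlations, so they cannot decide whether same-numbered arrays share a mouse. With the number as a replicate block the count was 6 for high against low dose after exposure (17.8% of all genes). From exposure to recovery the counts were 15, 24 and 27 in control, low and high dose (35.8%, 43.8% and 48.6% of all genes). The 7 control arrays of each collection limit the precision of every comparison with control.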

Other observations

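Several members have more than 1 probe set, and in 30 of 34 called differences with further probe sets above the filter, all of these had the same sign as the one used, though not always a like size. The exceptions were Psme4 and Psmd11 from exposure to recovery, each in both Pb groups. For Psme4 the other probe sets ranged from -0.81 to 0.18 at the low and from -0.56 to 0.066 at the high dose. For Psmd11 they ranged from -0.11 to 0.35 at the low and from -0.20 to 0.28 at the high dose.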
